A study of Mus musculus with 6 samples.

Results

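The 9 transcription factor genes described here are the progenitor factors Trp63 and Sox2 and the differentiation factors Sox21, Klf4, Klf5, Grhl1, Grhl3, Ovol1 and Zfp750. They were taken from the expression table by gene symbol, 9 of 47360 symbols, with 2 progenitor and 7 differentiation factors. All 9 were found, each as a single entry. RNA-seq was performed on dental epithelial organoids (DEOs), spheres of epithelium grown in Matrigel for 14 days from adult dental epithelial stem cells (aDESCs). The cells came from the apical incisor buds of 9-week-old female C57BL/6J mice of wild-type genotype, and how many mice contributed to a library was not stated in the sources used here. Every medium contained 50% Wnt3a-conditioned medium, 5% R-spondin1-conditioned medium, 100 µg/ml EGF, 10 µM of the kinase inhibitor Y27632 and 200 µg/ml of the BMP antagonist Noggin. Per the study's methods, all media also held N-acetylcysteine, in a supplemented basal medium. Organoids in +N received none of the agents compared here, and those in +ND received 10 µM dibenzazepine (DBZ). DBZ is an inhibitor of γ-secretase, the protease that releases the active part of Notch receptors. Organoids in +NF received 100 µg/ml FGF10, and those in +NFD received both FGF10 and DBZ. Doses are written as in the sample labels. For DBZ the study's methods give the same figure in millimolar instead of micromolar, and which unit is right could not be settled here. There was 1 library per medium, so that differences between media had no replicate check, and 2 further media in the labels, +NJ and +NFJ, were not analysed here.

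In stratified epithelia, p63, the protein of Trp63, maintains the proliferative basal layer and opens the epithelial gene programme. Cells that leave this layer turn on further factors in sequence, among them KLF4, the grainyhead-like factors, OVOL1 and ZNF750. Together these factors limit proliferation and activate genes of the barrier and cornified envelope. In the continuously growing mouse incisor, SOX2 marks the epithelial stem cells of the apical bud. Notch signaling acts at the step from basal to suprabasal cell in such epithelia, and FGF10 is a mesenchymal signal that maintains the incisor epithelium.

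Levels are given as FPKM, fragments normalised to transcript length and library size. Ratios between media are log2((FPKM + 1)/(FPKM + 1)), a scale that understates differences of genes with low FPKM, and a gene was counted as higher or lower at a 2-fold ratio. From the smallest steps between FPKM values, the depth of +ND was estimated as 0.797 times that of +N, and those of +NF and +NFD as 1.04 and 1.05 times, and 12529 to 12959 genes reached an FPKM of 1. The intervals given below are 95% Poisson intervals on these inferred fragments and cover counting error only. The epithelial keratin genes Krt5 (4984 to 6582 FPKM) and Krt14 (5530 to 12652 FPKM) were abundant in every library. The summed level of 8 epithelial markers moved with the media, at 20964 FPKM in +N and 12040 in +ND, against 16357 in +NF and 13242 in +NFD, and most of it was Krt14 and Krt5. Hes1, a direct target of Notch, stood at 157 FPKM in +N and 74.6 in +ND, against 109 in +NF and 80.1 in +NFD. The summed level of 10 fibroblast markers, all detected in every library, was 172 FPKM in +N and 160.1 in +ND, against 109 in +NF and 453 in +NFD, and that of 8 macrophage markers, also all detected, was 669, 548, 472 and 419 FPKM in the same order. Most of the macrophage sum was Lyz2, and the other 7 markers summed to 141, 141, 99.5 and 131 FPKM. The sum of 4 endothelial markers did not exceed 0.326 FPKM. Of 6 Schwann cell markers, Sox10 and Foxd3 were listed at 0 in every library, and the sum of 4.02 to 5.71 FPKM was mostly Mbp (3.14 to 5.29). Of 5 Merkel cell markers, Atoh1 was at 0 throughout, Isl1 lay between 16.2 and 34.8 FPKM, and Krt20 was 4.36 FPKM in +N, 0.10 in +NF and 0 in both libraries with DBZ. Of 5 melanocyte markers, Dct was at 0 throughout and the sum was 0.681 to 1.63 FPKM. In bulk organoids, fewer cells of a type and less RNA per cell cannot be told apart.

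Trp63 (ENSMUSG00000022510, GRCm38 chr16:25683763-25892102, plus strand) was among the more abundant of the 9 genes. Its level was 88.5 FPKM in +N and 166 in +ND, against 100.4 in +NF and 124 in +NFD. The library with DBZ alone was thus the highest, 1.87-fold above +N (interval 1.83 to 1.91), and both libraries with DBZ exceeded both without it. The log2 ratio of DBZ to no DBZ was 0.90 without FGF10 and 0.30 with FGF10, neither of which reached 2-fold. FGF10 gave log2 ratios of 0.18 without DBZ and -0.41 with DBZ. Trp63 has 8 annotated transcripts, from promoters that yield the full-length TA and the shorter ΔN proteins, and a gene-level value does not separate them.

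Sox2 (ENSMUSG00000074637, chr3:34650405-34652461, plus strand, a gene of a single exon) was 14.2 FPKM in +N and 12.3 in +ND, against 8.21 in +NF and 5.83 in +NFD. Both libraries with FGF10 lay below both without it, and the lowest was the library with both agents. The log2 ratio of FGF10 to no FGF10 was -0.72 without DBZ and -0.96 with DBZ, and +NFD was lower than +N by more than 2-fold (log2 ratio -1.15, linear ratio 0.412, interval 0.361 to 0.467). DBZ gave smaller differences, -0.19 without FGF10 and -0.43 with it. The summed macrophage markers had the same order of media as Sox2, through Lyz2, whereas the sum of the other 7 was lowest in +NF, and their part in this difference was not tested. Sox2 lies within the long noncoding gene Sox2ot on the same strand without sharing exon bases, and Sox2ot was listed at 0.340, 0.196, 0.324 and 0.161 FPKM in +N, +ND, +NF and +NFD.

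The ratio of Trp63 to Sox2 within a library, which does not depend on library scaling, was 6.25 in +N and 13.5 in +ND, against 12.2 in +NF and 21.3 in +NFD. The 2 progenitor genes therefore stood closest in +N and farthest apart with both agents. Ranked by FPKM among all genes, Trp63 was at position 984 in +N and 722 in +NFD, and Sox2 at 5724 and 9263. Of 10 genes listed for dental stem cells, 9 of which could be compared, Sox2 had the lowest log2 ratio in +NF and in +NFD relative to +N. Of these 9, 7 were above 0 and 2 below in +NF, and 8 above and 1 below in +NFD. Of all genes, 34.3% and 30.9% were below 0. Gli1 and Lgr5 are counted among those above 0. The medians, which include them, were 0.34 and 0.27, against 0.12 and 0.18 for all genes. Gli1, a target and effector of Hedgehog signaling, was 0.188 FPKM in +N and 0.865 in +ND, against 4.61 in +NF and 5.86 in +NFD. Lgr5, a receptor for R-spondins, was 0.0307, 0, 2.07 and 1.10 FPKM in the same order. Both reached an FPKM of 1 only in the libraries with FGF10, where they were higher. Their sign in the counts above was thus fixed by the filter, and no test of them is given. Bmi1, a Polycomb protein of stem cells, was 7.59, 11.1, 9.85 and 9.36 FPKM.

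**Figure D1:**
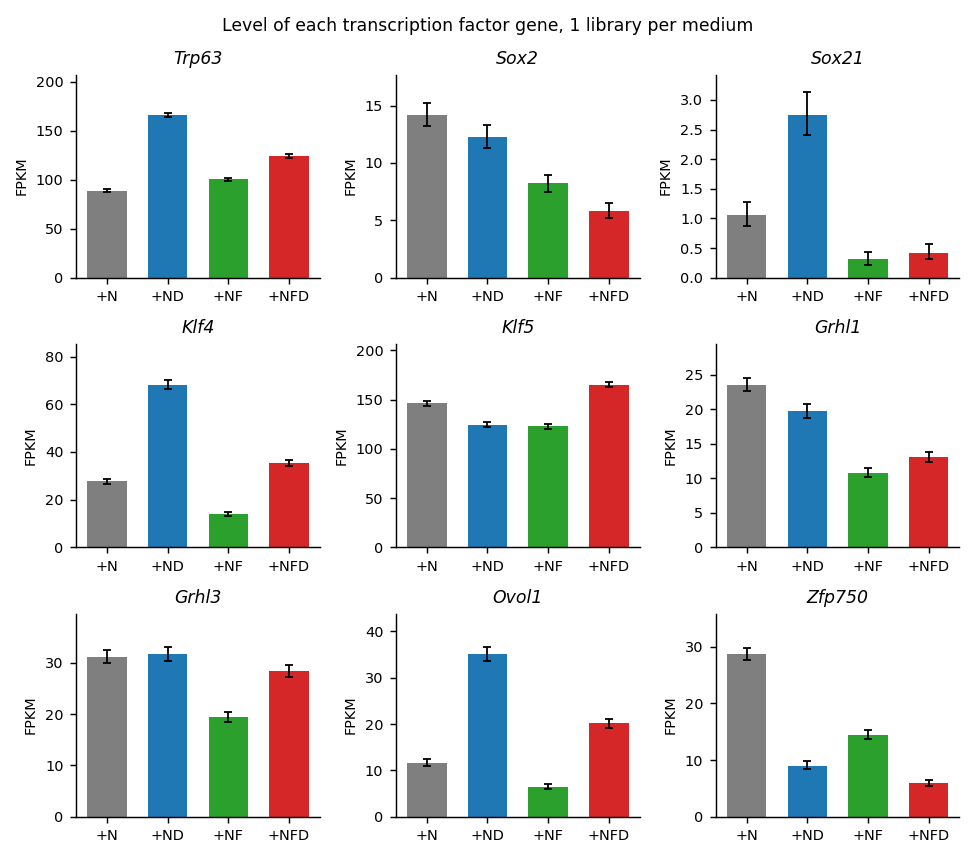
FPKM of each of the 9 genes in the 4 media, 1 library per bar, each panel with its own axis from 0. Error bars are 95% Poisson intervals on inferred fragments and cover counting error only. Klf4 and Ovol1 show the same order of media, Zfp750 is lowest in the 2 libraries with DBZ, and Sox2 is lowest in the 2 libraries with FGF10.

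Sox21 (ENSMUSG00000061517, chr14:118233232-118237030, minus strand), a SOX-family repressor expressed in hair cuticle and dental epithelium, was the least abundant of the 9 genes. It was 1.05 FPKM in +N and 2.74 in +ND, against 0.315 in +NF and 0.425 in +NFD, from about 110, 228, 34 and 46 fragments. The library with DBZ alone was the highest, and both libraries with FGF10 were below both without it. The counting intervals of +NF (0.217 to 0.438 FPKM) and +NFD (0.308 to 0.561 FPKM) overlapped. The linear ratio of +ND to +N was 2.61 (interval 2.06 to 3.29) and that of +NFD to +ND was 0.155 (interval 0.109 to 0.211), whereas the log2 ratios with a pseudocount of 1 were 0.87 and -1.39. Sox21 shares 713 of its 3799 exon bases with Gm4675, a noncoding gene on the opposite strand that was listed at 0.564, 0.461, 0.0221 and 0.109 FPKM in +N, +ND, +NF and +NFD. The strand setting of the counting was not given in the sources used here, and reads of the shared bases cannot then be told apart.

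Klf4 (ENSMUSG00000003032, chr4:55527143-55532466, minus strand) encodes a Krüppel-like factor that drives barrier formation in differentiating keratinocytes. Its level was 27.6 FPKM in +N and 68.2 in +ND, against 14.0 in +NF and 35.3 in +NFD. Each agent was associated with nearly the same ratio in the absence and the presence of the other. DBZ gave a log2 ratio of 1.27 without FGF10 and 1.27 with it, and FGF10 gave -0.93 without DBZ and -0.93 with it. With both agents the level was 1.28-fold that of +N (interval 1.21 to 1.35). Klf4 is also expressed by macrophages and fibroblasts, whose summed markers were given above, and their part in these ratios was not tested.

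Ovol1 (ENSMUSG00000024922, chr19:5549137-5560575, minus strand) encodes a zinc finger repressor that promotes the exit of epidermal progenitors from the cell cycle. It was 11.7 FPKM in +N and 35.1 in +ND, against 6.49 in +NF and 20.2 in +NFD, the same order of media as Klf4. DBZ gave log2 ratios of 1.51 without FGF10 and 1.50 with it, the largest positive ratios among the 9 genes, and FGF10 gave -0.76 and -0.77. The linear ratio of +ND to +N was 3.0 (interval 2.78 to 3.24), and that of +NFD to +NF was 3.11 (interval 2.82 to 3.43). Its paralogue Ovol2, which maintains epithelial identity, was 2.82, 2.33, 4.46 and 3.22 FPKM, so that the ratio of Ovol1 to Ovol2 ran from 1.46 in +NF to 15.0 in +ND. Ovol3 did not exceed 0.0556 FPKM. Ovol1 shares 690 and 76 of its 3488 exon bases with a pseudogene (Gm31166) and an antisense gene (AC126029.1) on the opposite strand, for which no value was used here.

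Zfp750 (ENSMUSG00000039238, chr11:121510978-121519333, minus strand) is the mouse gene for ZNF750, a p63-dependent factor of late keratinocyte differentiation. It was 28.7 FPKM in +N and 9.04 in +ND, against 14.5 in +NF and 5.92 in +NFD, and the 4 counting intervals did not overlap. Unlike Klf4 and Ovol1, it was lower in both libraries with DBZ than in both without it, with log2 ratios of -1.56 without FGF10 and -1.16 with it. FGF10 gave -0.94 without DBZ and -0.54 with DBZ. Relative to +N, the library with both agents was lower by 2.10 on the log2 scale, or at 0.207 of its level (interval 0.188 to 0.227). Zfp750 lies within Tbcd, on the opposite strand and without shared exon bases, and Tbcd was 23.3, 18.5, 23.1 and 17.4 FPKM in +N, +ND, +NF and +NFD. The ratio of Zfp750 to Ovol1 within a library was 2.45 in +N and 2.23 in +NF, against 0.258 in +ND and 0.294 in +NFD.

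Klf5 (ENSMUSG00000005148, chr14:99298691-99313405, plus strand), a Krüppel-like factor of proliferating basal cells, varied least. The grouping used here places it among the differentiation factors, and it is the largest term of their summed FPKM. It was 146 FPKM in +N and 124 in +ND, against 123 in +NF and 165 in +NFD, and no ratio reached 2-fold. The levels in +ND and +NF had overlapping counting intervals. Klf5 was 5.29-fold the level of Klf4 in +N and 1.82-fold in +ND, against 8.74-fold in +NF and 4.68-fold in +NFD.

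The grainyhead-like factors bind a shared DNA motif and activate genes of cell junctions and of the barrier. Grhl1 (ENSMUSG00000020656, chr12:24572287-24617391, plus strand), a regulator of desmosomal cadherins, was 23.6 FPKM in +N and 19.7 in +ND, against 10.8 in +NF and 13.0 in +NFD. Both libraries with FGF10 were below both without it, and +NF was the only library below +N by 2-fold (log2 ratio -1.06, linear interval 0.425 to 0.492). Grhl3 (ENSMUSG00000037188, chr4:135541888-135573630, minus strand), which acts in barrier formation and wound closure, was 31.2, 31.7, 19.4 and 28.4 FPKM in +N, +ND, +NF and +NFD. Its counting intervals in +N and +ND overlapped, and +NF was the lowest library, with a log2 ratio of -0.66 to +N. Grhl2, the third member of the family, was 23.6, 18.4, 26.7 and 24.7 FPKM in the same order of media and was not lower in the libraries with FGF10. The ratio of Grhl2 to Grhl1 was 1.00 in +N and 0.934 in +ND, against 2.47 in +NF and 1.90 in +NFD.

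Promoter sequences are shown for the genes that illustrate the contrasts above, Klf4 for the DBZ difference, Sox2 for the FGF10 difference and Grhl3 as the one with most matches to the motifs searched. RefSeq promoters on GRCm38.p6, from 250 bases before to 50 bases after a start site, were at hand for 5 of the 9 genes (Sox2, Sox21, Klf4, Grhl1 with 2 start sites, and Grhl3). Both strands were searched for AACCGG (GRHL), CCACCC (KLF), ACAATG (SOX) and TGGGAA (RBPJ, the DNA-binding partner of Notch), and matches are in capitals, with no overlap between them. The windows are chr4:55532426-55532725 on the minus strand for Klf4, chr3:34649745-34650044 on the plus strand for Sox2 and chr4:135573583-135573882 on the minus strand for Grhl3. The Sox2 window ends before the start of the deposited entry, from another annotated start site.
Klf4: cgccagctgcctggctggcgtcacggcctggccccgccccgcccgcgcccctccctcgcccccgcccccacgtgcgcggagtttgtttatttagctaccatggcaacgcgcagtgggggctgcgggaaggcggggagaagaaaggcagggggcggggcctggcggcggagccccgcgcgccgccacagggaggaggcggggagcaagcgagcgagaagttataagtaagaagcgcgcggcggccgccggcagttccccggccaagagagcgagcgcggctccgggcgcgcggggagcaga
Sox2: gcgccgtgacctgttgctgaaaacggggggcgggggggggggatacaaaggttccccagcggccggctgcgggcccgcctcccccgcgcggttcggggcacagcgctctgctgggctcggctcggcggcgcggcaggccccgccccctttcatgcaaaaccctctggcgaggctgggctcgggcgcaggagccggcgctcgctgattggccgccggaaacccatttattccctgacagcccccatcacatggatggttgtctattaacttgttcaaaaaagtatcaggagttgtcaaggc
Grhl3: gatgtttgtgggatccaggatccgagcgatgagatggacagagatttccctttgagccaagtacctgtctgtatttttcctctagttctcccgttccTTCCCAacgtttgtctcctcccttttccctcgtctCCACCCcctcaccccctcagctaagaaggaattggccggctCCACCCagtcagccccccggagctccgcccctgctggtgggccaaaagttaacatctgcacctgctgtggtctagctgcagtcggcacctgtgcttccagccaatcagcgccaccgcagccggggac
The Grhl3 window holds TTCCCA, the RBPJ letters on the other strand, at -153 and CCACCC at -118 and -77 from the start site, and the second Grhl1 window holds GGGTGG at -81. The windows of Klf4, Sox2 and Sox21 hold none of the 4 motifs in these letters. Of 32851 promoters of the same length, 6.83% held the GRHL letters, 31.5% the KLF letters, 12.6% the SOX letters and 25.6% the RBPJ letters. GC content was 74.3% for Klf4, 66.3% for Sox2 and 58.3% for Grhl3, against a median of 52.7% over all promoters.

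Related genes could exchange fragments where their sequences are the same, and the longest identical runs between coding sequences are shown for this reason. They were 38 bases between Sox2 and Sox21, 29 bases between Grhl1 and Grhl2 and 23 bases between Trp63 and Trp73. Shorter runs were 22 bases between Sox2 and Sox15, 20 between Ovol1 and Ovol2 and 14 between Trp63 and Trp53. Grhl1 and Grhl3 shared 12 bases, and Klf4 and Klf5 shared 11. The 3 longest of these read as follows, on the coding strand.
Sox2 and Sox21: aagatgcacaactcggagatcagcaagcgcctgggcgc
Grhl1 and Grhl2: ctgggcctgctctatgactactacaaggt
Trp63 and Trp73: aagacatgccccatccagatcaa

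The effect of Notch inhibition was compared between +ND and +N, without FGF10. Klf4 and Ovol1 were higher and Zfp750 was lower by at least 2-fold, 3 of 9 genes, where 11.2% of the 13173 genes compared passed that threshold (5.88% higher and 5.29% lower). The genes within 2-fold were Trp63 (log2 0.90) and Sox21 (0.87) on the higher side, Grhl3 (0.02) near no difference and of the opposite sign under 3 other scalings, and Sox2 (-0.19), Klf5 (-0.23) and Grhl1 (-0.25) below 0. The median over the 9 genes was 0.02, and over all genes 0.10. Sox21 passed 2-fold as well with a pseudocount of 0.1 (log2 1.30). In the same comparison 6 of the 8 epithelial markers were at least 2-fold lower and 0 higher (median -1.22), among them Epcam (122 FPKM in +N and 54.8 in +ND), Cdh1 (163 and 68.0) and Cldn4 (326 and 98.5), and their part in these ratios was not tested.

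In the presence of FGF10, DBZ was compared between +NFD and +NF. The same 3 genes passed 2-fold in the same directions, where 6.41% of 13349 genes did. Sox21 was below 1 FPKM in both libraries and was not counted, which left 8 of 9 genes. The log2 ratios were 1.50 for Ovol1, 1.27 for Klf4 and -1.16 for Zfp750. The other genes lay between -0.43 for Sox2 and 0.53 for Grhl3. In the same comparison 7 of the 10 fibroblast markers were at least 2-fold higher and 0 lower (median 1.96). Of the 8 epithelial markers, 3 were at least 2-fold lower and 0 higher (median -0.75). The part of either group in these ratios was not tested.

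FGF10 without DBZ was compared between +NF and +N. Grhl1 was lower by at least 2-fold, 1 of 9 genes, where 5.19% of 13090 genes passed (2.76% higher and 2.44% lower). Of the 9 genes, 8 had log2 ratios below 0, as did 34.3% of all genes. The 7 differentiation factors were all among them, from -0.25 for Klf5 to -1.06 for Grhl1. Their median was -0.76, against 0.12 for all genes. Sox21 is counted here, but it passed the filter only through +N, so its sign was fixed. Klf4 (-0.93) and Zfp750 (-0.94) lay just short of the threshold, and they passed it when ratios were centred on the median of all genes, whereas Grhl1 no longer passed (-0.96) when libraries were scaled by 8 housekeeping genes. With FGF10 and DBZ against DBZ alone (+NFD and +ND), Sox21 was lower by at least 2-fold, 1 of 9 genes, where 6.5% of 13293 genes passed, and it reached an FPKM of 1 only in +ND. Again 8 of 9 genes were below 0, as were 41.0% of all genes, Klf5 being the exception (0.41), and Sox2 (-0.96) and Klf4 (-0.93) lay just inside 2-fold. These comparisons share libraries with those of DBZ, so their values are set side by side and are not independent of each other.

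The medium with both agents was compared with +N. Sox2 and Zfp750 were lower by at least 2-fold, 2 of 9 genes, where 9.88% of 13358 genes passed (5.85% higher and 4.03% lower). Trp63 (log2 0.48), Klf4 (0.34), Klf5 (0.17, of the opposite sign after centring) and Ovol1 (0.74) were above 0, and Sox21 (-0.53), Grhl1 (-0.81) and Grhl3 (-0.13) were below 0. Sox21, which reached an FPKM of 1 in +N and not in +NFD, was lower by more than 2-fold as well with a pseudocount of 0.1 (log2 -1.13). The FPKM of the 7 differentiation factors, summed within a library, was 270.1 in +N and 291 in +ND, against 188 in +NF and 268 in +NFD. Klf5 was its largest term in every library, while Klf4 and Ovol1 were higher and Klf5 was lower in +ND than in +N. The fibroblast marker sum was highest in +NFD, and its part in these ratios was not tested.

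To test the average difference with each agent over both states of the other, an additive model was fitted by limma to the 13748 genes that reached an FPKM of 1 in any library. Its spread comes from how far the 4 libraries depart from additivity (1 residual degree of freedom), moderated over all genes (6.23 prior degrees of freedom), and not from replicate cultures. With DBZ, Ovol1 rose (log2 1.50, 95% interval 1.02 to 1.99, adjusted p = 0.0092), Klf4 rose (1.27, interval 0.79 to 1.75, adjusted p = 0.017) and Zfp750 fell by 1.36 (interval of the effect -1.88 to -0.84, adjusted p = 0.018). These were 3 of 9 genes, where 3.8% of all genes passed an adjusted p of 0.05 (1.71% higher and 2.09% lower). In both states of FGF10 the 3 genes moved in these directions. Trp63 had an effect of 0.60 (interval 0.07 to 1.13) with an unadjusted p of 0.032 and an adjusted p of 0.28, and did not pass. The effects on Klf5 (0.10) and Grhl1 (0.00) were near 0, and both changed sign with the library scaling. All 3 calls depended on the filter on low values, since without any filter limma called no gene of the table, and the adjusted p of Klf4, Ovol1 and Zfp750 was then 0.278, 0.278 and 0.312.

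With FGF10, limma called 0 of the 9 genes after adjustment, where 0.866% of all genes passed. At an unadjusted p under 0.05 it called 6 of 9, where 10.7% of all genes did, and 8 of 9 effects were below 0, as were 35.2% over all genes. The 6 genes were Sox21 (log2 -1.02, adjusted p = 0.30), Klf4 (-0.93, adjusted p = 0.12), Sox2 (-0.84, adjusted p = 0.18), Grhl1 (-0.81, adjusted p = 0.22), Ovol1 (-0.77, adjusted p = 0.20) and Zfp750 (-0.74, adjusted p = 0.27). Sox21 reached an FPKM of 1 only in the libraries without FGF10 and so entered the fit through them, and 5 of the other 8 genes had an unadjusted p under 0.05. Over the alternative settings the lowest adjusted p of any of them was 0.058, for Klf4. Grhl3 had an effect of -0.40 (interval -0.94 to 0.13), Trp63 of -0.12 (interval -0.65 to 0.41) and Klf5 of 0.08 (interval -0.46 to 0.62).

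Whether the difference with DBZ was alike without and with FGF10 was described gene by gene. Klf4 and Ovol1 were the closest, with differences between the 2 log2 ratios of 0.00 and -0.01, and 99.7% and 98.6% of all genes differed by at least as much. Trp63 (-0.59), Sox21 (-0.75) and Klf5 (0.66) had the widest gaps among the 9 genes. The middle 50% of all genes spanned -0.37 to 0.31, and a test of a single gene's gap was not possible with 1 library per medium. The sign of the DBZ ratio was the same in both states for 7 of 9 genes, the exceptions being Klf5 and Grhl1, and the sign of the FGF10 ratio was the same for 7 of 9, the exceptions being Trp63 and Klf5. The share of all genes with the same sign in both states was not counted, so these counts only describe the 9 genes.

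**Figure D2:**
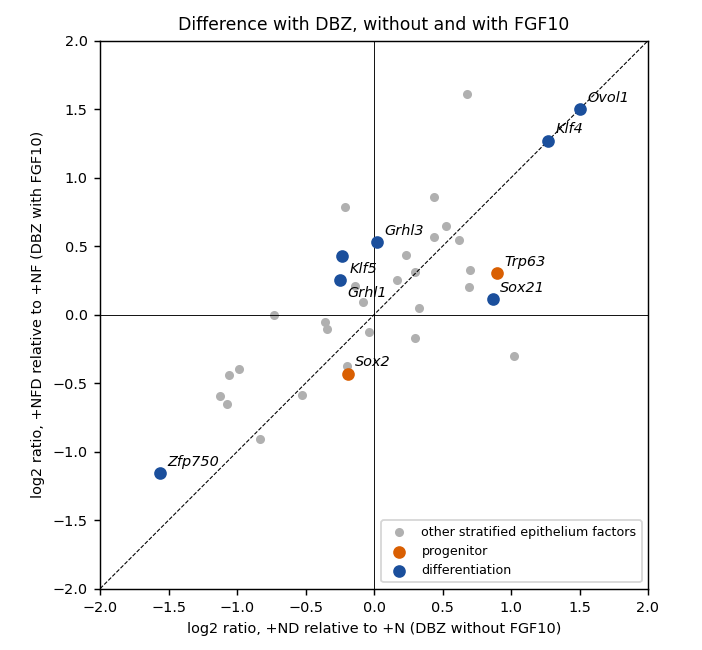
log2 ratio of +ND to +N (horizontal) against that of +NFD to +NF (vertical) for the 2 progenitor factors (orange), the 7 differentiation factors (blue) and the other stratified epithelium transcription factors that reached an FPKM of 1 (grey). The dashed line marks equal ratios. Klf4 and Ovol1 lie on the line at the upper right, Zfp750 lies at the lower left, and Klf5 and Grhl1 lie to the left of 0 and above it.

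The balance of progenitor and differentiation factors within a library depended on which factor was set against which. Trp63 was 3.21-fold the level of Klf4 in +N and 2.43-fold in +ND, against 7.15-fold in +NF and 3.51-fold in +NFD. Against Zfp750, Trp63 was 3.09-fold in +N and 18.3-fold in +ND, against 6.95-fold in +NF and 21.0-fold in +NFD. The first ratio was thus lowest in +ND and the second was lowest in +N. The ratio of Sox2 to Klf4 was 0.513 in +N and 0.584 in +NF, against 0.180 in +ND and 0.165 in +NFD. The ratio of Klf4 to Zfp750 separated the libraries in the same way, at 0.964 and 0.972 without DBZ and 7.54 and 5.97 with it. Of the FPKM of all 9 genes together, Trp63 made up 23.8% in +N and 35.4% in +ND, against 33.8% in +NF and 31.2% in +NFD.

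Among relatives of the 9 genes, the p63 paralogue Trp73 was 1.63 FPKM in +N and 5.99 in +ND, against 1.77 in +NF and 2.55 in +NFD, the same order of media as Trp63. Trp53 was 64.5, 86.7, 80.7 and 91.1 FPKM. In the Sox family, Sox9, which marks the dental epithelium near the stem cell niche, was 21.4 FPKM in +N and 1.45 in +ND, against 21.6 in +NF and 2.81 in +NFD, and it fell by 2.88 with DBZ (log2, limma, adjusted p = 0.00093). Sox2 had no such difference with DBZ (log2 -0.31, adjusted p = 0.59). Sox15 was 42.6, 77.6, 47.5 and 62.9 FPKM, the same order of media as Trp63. Sox7 (7.0, 19.9, 8.95 and 12.8 FPKM) had that order too, whereas Sox4 (16.6, 24.8, 15.4 and 17.3), Sox12 (1.93, 5.80, 4.44 and 7.35) and Sox13 (6.20, 2.86, 4.60 and 4.71) did not. None of these 5 passed the test with either agent.

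The other Krüppel-like factors at 5 FPKM or more varied less than Klf4. Klf3 was 44.4, 50.0, 37.8 and 45.1 FPKM in +N, +ND, +NF and +NFD, Klf6 was 30.9, 27.0, 26.4 and 20.4 FPKM, and Klf13 was 20.6, 30.8, 20.6 and 27.4 FPKM. Klf10 lay between 30.7 and 34.4 FPKM, Klf16 between 11.4 and 14.8, Klf9 between 10.2 and 14.2 and Klf7 between 4.60 and 6.83. Of 13 family members in the limma fit, Klf4 was the only one called with DBZ, where 3.8% of all genes were, and 0 were called with FGF10, where 0.866% of all genes were and 1 of the 13 had an unadjusted p under 0.05.

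Of 31 further transcription factors of stratified epithelium, 27 could be compared in each comparison. In +ND 1 was higher and 3 were lower by at least 2-fold, in +NF 1 and 2, and in +NFD 2 and 2, where 11.2%, 5.19% and 9.88% of all genes passed in either direction, with medians of -0.04, -0.18 and -0.0065. By limma 0 were called with DBZ, where 10 had an unadjusted p under 0.05 (14.5% of all genes did), and 0 with FGF10, where 5 did (10.7% of all genes). Among those whose libraries were at least 2-fold apart, Cebpa (38.4, 17.0, 32.0 and 20.9 FPKM) and Barx2 (112, 62.7, 91.4 and 48.2) stood lower in both libraries with DBZ. Runx1 (84.1, 41.9, 88.8 and 67.2 FPKM) did so too. Ehf (134, 63.3, 60.8 and 38.3), an ETS factor of epithelial differentiation, had its highest level in +N and its lowest in +NFD, as Sox2 and Zfp750 did.

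Others of this list resembled different members. Hopx (66.5, 57.3, 19.3 and 34.0 FPKM in +N, +ND, +NF and +NFD), a homeodomain protein of suprabasal cells, was lower in both libraries with FGF10, like Grhl1. Dlx3 (8.95, 14.9, 6.03 and 20.4 FPKM), a homeobox factor of epidermis and tooth, was higher in both libraries with DBZ, like Klf4 and Ovol1. Bcl11b (4.69, 6.70, 2.50 and 4.18) and Maf (10.7, 22.8, 8.33 and 6.55) were highest in +ND. Satb1 (1.64, 1.39, 4.88 and 5.80 FPKM), a p63-dependent chromatin organizer, was higher in both libraries with FGF10. None of these 5 passed the limma test with either agent.

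The genes whose pattern over the 4 libraries was most like that of each factor were found by the largest gap between the 2 centred log2 profiles, over 10466 genes at 5 FPKM or more. This is a description over 4 libraries. The closest to Klf4 were Ptprn2 (gap 0.06), the sodium channel gene Scnn1a (0.13) and the glucose transporter gene Slc2a1 (0.19), which was 197, 410, 113 and 226 FPKM in +N, +ND, +NF and +NFD. The closest to Ovol1 were Prl2c2 (0.17), Vsig10l (0.20) and Klf4 itself (0.20). The closest to Zfp750 were Tmprss11g (0.12), a transmembrane serine protease gene at 220.0, 79.6, 132 and 56.8 FPKM, Oasl1 (0.15) and Rhbg (0.19). For Sox2 they were Cd80 (0.09), Ephx3 (0.12) and Anxa1 (0.15), for Sox21 Ahr (0.12), Aadacl2 (0.13) and Cpeb2 (0.17), and for Grhl1 Gm26809 (0.04), Fam46b (0.09) and Ggt6 (0.10). Within a gap of 0.25 there were 7 genes for Ovol1, 8 each for Klf4 and Zfp750, 17 for Sox21, 29 for Sox2 and 41 for Grhl1. Trp63, Klf5 and Grhl3 spanned less than 1 on this scale and were not matched.

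Genes that these factors are known to act on were described from lists. Of 20 genes listed as p63 targets, 3 were higher and 1 was lower by at least 2-fold in +ND relative to +N. The counts were 2 and 1 in +NF, and 2 and 4 in +NFD. Of all genes, 11.2%, 5.19% and 9.88% passed in either direction in these comparisons. The median log2 ratios of the 20 genes were -0.16, -0.05 and -0.03, while those of Trp63 were 0.90, 0.18 and 0.48. In +ND the highest were the FGF receptor genes Fgfr2 (1.52) and Fgfr3 (1.03) and the plakin gene Dst (1.03), and the lowest were the keratin gene Krt14 (-1.19), the laminin gene Lama3 (-0.97) and Krt15 (-0.81). In +NF the highest were the integrin genes Itga3 (1.15) and Itgb4 (1.04) and the Notch ligand gene Jag2 (0.81), and the lowest were Krt15 (-1.50), Pkp1 (-0.80) and Krt14 (-0.61). In +NFD, Itgb4 (1.57), Itga3 (1.06) and Jag2 (0.99) were highest, and Krt15 (-1.40), Pkp1 (-1.09) and Krt14 (-1.05) were lowest. By limma, Fgfr2 rose and Lama3 fell with DBZ (log2 1.28 and -1.08, adjusted p = 0.024 and 0.032), 2 of 20 where 3.8% of all genes passed, and 6 had an unadjusted p under 0.05 (14.5% of all genes). With FGF10, 0 of the 20 passed, where 0.866% of all genes did, and 8 had an unadjusted p under 0.05 (10.7% of all genes).

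Of 33 genes of terminal differentiation, 23 were higher and 2 lower by at least 2-fold in +ND among 31 compared, with a median of 2.52. In +NF, 0 were higher and 16 lower among 26, with a median of -1.58, and in +NFD 13 were higher and 3 lower among 29, with a median of 0.67. Of all genes, 11.2%, 5.19% and 9.88% passed 2-fold in either direction in these comparisons, with medians of 0.10, 0.12 and 0.18. These counts include genes that reached an FPKM of 1 in only 1 of the libraries compared. By limma, 19 of 31 rose with DBZ, where 1.71% of all genes did, but 5 of the 31 reached an FPKM of 1 only in the libraries with DBZ, among them Klk5 and Aloxe3, which are counted in the 19. Of the other 26 genes, 17 rose, where 1.51% of all genes that reached an FPKM of 1 both with and without DBZ did. In the same fit 4 of 8 epithelial markers fell with DBZ and 0 rose (median -1.05), where 2.09% of all genes fell. All 10 fibroblast markers had effects above 0 (median 1.03), where 39.0% of all genes had effects below 0. Of the 10, 1 passed, where 1.71% of all genes rose. The part of these markers in the list's change was not tested. With FGF10, 13 of 31 fell, where 0.538% of all genes did, and these 13 reached an FPKM of 1 both with and without FGF10. In +ND the highest were Rptn (log2 5.53), the keratin gene Krt1 (5.35) and the protease gene Klk7 (4.96), and the lowest were Krt10 (-1.49), Evpl (-1.17) and Dmkn (-0.53). In +NF the lowest were Krt10 (-5.40), Sprr1b (-3.53) and Asprv1 (-3.31), and Lor (0.06) was the only one above 0. In +NFD the highest were Rptn (4.05), Klk7 (3.63) and Lor (3.58), and the lowest were Krt10 (-4.60), Ivl (-1.04) and Dmkn (-1.03). Klf4 and Ovol1 had the same signs as the median of this list in all 3 media, and Zfp750 had the opposite sign in +ND and +NFD and the same sign in +NF.

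**Figure D3:**
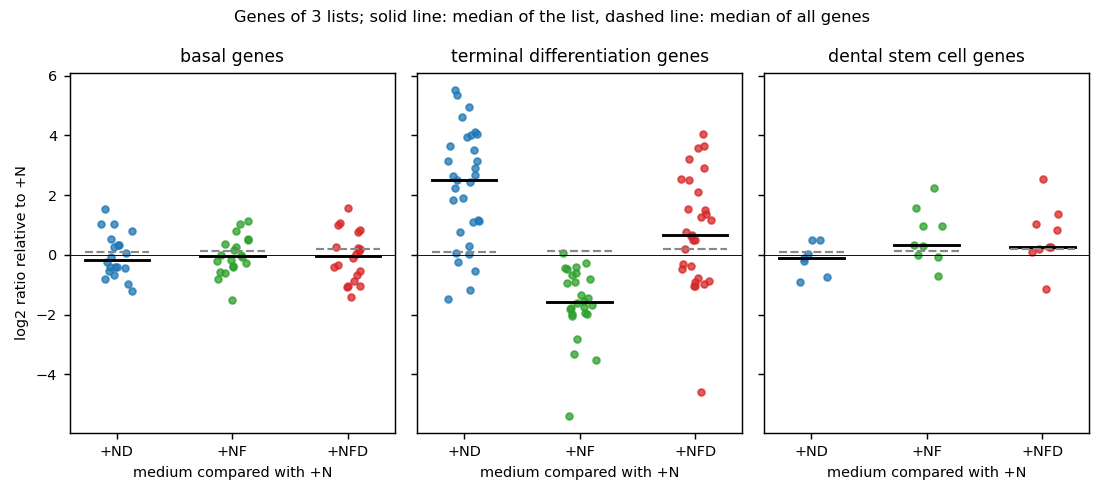
log2 ratio to +N of single genes (points) in +ND, +NF and +NFD, for genes that reached an FPKM of 1 in either library. The lists are those of p63 targets (panel titled basal genes), terminal differentiation and dental stem cells. Solid lines are the medians of each list and dashed lines those of all genes. The terminal differentiation genes lie mostly above 0 in +ND (median 2.52) and below 0 in +NF (median -1.58). The p63 target genes scatter around 0 in all 3 media.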

How the data were processed

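Total RNA of DEOs was sequenced with 1 library per medium, in 4 media. Per the labels and the study's methods, the authors trimmed reads with Trim Galore 0.6.5 (quality checked with FastQC 0.11.9), aligned them to GRCm38 with TopHat2 2.1.1 and used Cufflinks for the deposited FPKM values. The annotation release and strand setting were not given in the sources used here. Because FPKM divides by library size, abundant transcripts lower all other values.

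Values of entries with the same symbol were summed (123 of 47360 symbols, none among the 9 genes). Ratios used a pseudocount of 1, left out genes below an FPKM of 1 in both libraries and were called at 2-fold. The additive fit used limma 3.58.1 (R 4.3.3) with a trend on log2(FPKM + 1), terms for FGF10 and DBZ, and Benjamini-Hochberg adjustment over 13748 genes at a threshold of 0.05. Tested on simulated data, the DBZ fit recovered 91 of 100 genes shifted by a log2 of 1 and 100 of 100 shifted by 2, with 8 false calls. The simulation gave every gene independent noise of the same size. In the real fit the standard error differed between genes, from 0.205 for Klf4 to 0.326 for Sox21 among the 9. The simulated counts therefore do not give the recovery of the fit on these data. Fragments were inferred from the step between low FPKM values over 7609 genes with a single transcript of at least 1000 bases in GENCODE M21, which also gave transcripts, strands and overlaps, and intervals assume the longest transcript. The 9 genes, the lists and the tests were chosen with earlier results of these data known. Named genes were the 9, all members of the p53, Grhl and Ovol families, Sox, Klf and epithelial factors by level and spread, and the 3 highest and 3 lowest of each target list. Of the lists, 2 genes are not reported here and were left out of the counts, medians and figures after the values were seen. The alternatives were a pseudocount of 0.1 or none, no filter or one at an FPKM of 5, upper-quartile, median and housekeeping scaling, and the highest entry in place of the sum.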

Additional observations from a re-analysis of the deposited data

Results flagged for a closer look

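The direction of a ratio differed between the states of the other agent for 3 genes, each from 1 library per medium, and none of these differences was tested. For Trp63, the log2 ratio with FGF10 was 0.18 without DBZ and -0.41 with DBZ, and 25.5% of all genes had a gap at least as wide. For Klf5, the log2 ratio with DBZ was -0.23 without FGF10 and 0.43 with it, and the log2 ratio with FGF10 was -0.25 without DBZ and 0.41 with it, both from the same 4 libraries, with 21.1% of all genes showing a gap at least as wide. For Grhl1, the log2 ratio with DBZ was -0.25 without FGF10 and 0.25 with it, a gap that 33.0% of all genes equalled or exceeded. All 4 ratio pairs stayed within 2-fold.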

How the results depend on the processing

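Of 348 ratios of the 9 genes under alternatives, 15 crossed the 2-fold threshold and 4 changed sign, 3 of these for Grhl3 between +ND and +N and 1 for Klf5 between +NFD and +N. Klf4, Ovol1 and Zfp750 passed 2-fold with DBZ, in both states of FGF10, under each alternative that was run. For +NF relative to +N, where 1 of the 9 genes passed, 2 passed with a pseudocount of 0.1 and 2 with none (Sox21 added), 3 with upper-quartile scaling and 3 with ratios centred on their median (Klf4 and Zfp750 added), and 0 with housekeeping scaling, which was chosen after seeing the data. Sox21 was also added for +NFD relative to +N, where the count went from 2 to 3 with a pseudocount of 0.1 and with none. For +NFD relative to +ND, where 1 passed, 2 passed with a pseudocount of 0.1 and 2 with none (Sox2 added), 0 with a filter at an FPKM of 5, where Sox21 is left out, and 3 with centred ratios (Sox2 and Klf4 added). The DBZ count by limma went from 3 to 0 without a filter, where the DBZ calls over all genes went from 523 to 0 and the FGF10 calls from 119 to 0, and the cause was not tested. The average effect of DBZ on Grhl1 reversed to -0.068 with upper-quartile scaling, -0.074 with centring and -0.15 with housekeeping scaling. That on Klf5 reversed to -0.066 with housekeeping scaling, and the effect of FGF10 on Klf5 to -0.025 with centring. Over all genes, counts at 2-fold rose from 680 to 1192 and 1197 (+NF to +N), from 1320 to 2014 and 1997 (+NFD to +N) and from 864 to 1394 and 1412 (+NFD to +ND) with a pseudocount of 0.1 and none, and FGF10 calls by limma were 201, 199, 216 and 75 with a pseudocount of 0.1, a filter at 5, centring and housekeeping scaling. Centring moved the split of higher and lower genes from 774 and 697 to 615 and 842 (+ND to +N), from 361 and 319 to 248 and 412 (+NF to +N), from 782 and 538 to 540 and 714 (+NFD to +N) and from 450 and 414 to 345 and 506 (+NFD to +ND). Housekeeping scaling moved it to 652 and 815 (+ND to +N) and 505 and 287 (+NF to +N), and from 497 and 359 to 400 and 476 (+NFD to +NF). Upper-quartile scaling moved it to 642 and 832 (+ND to +N) and 301 and 371 (+NF to +N). No paired analysis was possible because each medium had 1 library, and leaving out a library left no residual degrees of freedom. Sox21, at 34 to 46 fragments with FGF10, was limited most by depth.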

Other observations

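The epithelial markers included the keratin pair of simple epithelia, Krt8 and Krt18, which varied more between media than any of the 9 transcription factor genes. Krt8 was 22.8 FPKM in +N and 0.574 in +ND, against 86.0 in +NF and 5.95 in +NFD, and Krt18 was 76.7, 9.90, 241 and 63.2 FPKM in the same order. Both were lower in each library with DBZ than in the matching library without it and higher in each library with FGF10, an order opposite to that of Klf4 and Ovol1. By limma, Krt8 fell by 3.78 with DBZ (adjusted p = 0.00014) and rose by 2.01 with FGF10 (adjusted p = 0.013), and Krt18 fell by 2.37 with DBZ (adjusted p = 0.0035) and rose by 2.10 with FGF10 (adjusted p = 0.023). These genes were singled out after their values were seen.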
